A study of Mus musculus with 8 samples.

Results

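The genes described here are 10 members of bone morphogenetic protein (BMP) signalling, chosen by name: the ligands *Bmp2*, *Bmp4* and *Bmp7*, the secreted antagonist *Grem1*, the type I receptor *Bmpr1a*, the inhibitory SMAD *Smad6*, and the target genes *Id1*, *Id2*, *Id3* and *Id4*. They are 10 of the 18990 genes in the deposited table, and all 10 were among the 13866 genes tested. RNA-seq was carried out on primary fibroblasts of wild-type BL6 mouse embryos (MEFs), which were reprogrammed. The sample labels give passage 2, and the paper's methods give an earlier passage at seeding. All groups carried 2 lentiviruses, tet-STEMCCA with the transgenes Oct4, Sox2, Klf4 and c-Myc, and rtTA, which lets doxycycline switch the transgenes on. All groups also received the same medium, with 2 µg/mL doxycycline, 3 µM chiron (an inhibitor of the kinase GSK3), 0.25 µM Alk5i (an inhibitor of the TGF-beta type I receptor ALK5), 50 µg/mL ascorbic acid and LIF. The 4 groups differed in the siRNA pool, which targeted *Ncor1* or *Oct4* at 40 nM, and in the day of reprogramming on which RNA was taken, day 3 or day 6. Each group had 2 biological replicates, which gives 8 libraries. Transduced MEF cultures are mixed populations, in which fewer cells of a type and less RNA per cell cannot be told apart. The non-targeting control was not analysed here, so each comparison is between the siRNA pools or between the days.

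BMPs are secreted dimeric ligands of the TGF-beta superfamily. They bind complexes of type I and type II receptor kinases, which phosphorylate SMAD1, SMAD5 and SMAD9, and these enter the nucleus with SMAD4. GREM1 binds BMP2, BMP4 and BMP7 outside the cell and keeps them from the receptors, whereas SMAD6 blocks the signal inside the cell and is itself induced by it, as are the *Id* genes. ID proteins lack a DNA-binding domain and hold E proteins such as TCF3, TCF4 and TCF12 away from DNA. In fibroblast reprogramming, BMP signalling is known for promoting the mesenchymal to epithelial transition that comes early in the process.

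Promoters from RefSeq (GRCm38.p6) were matched for 7 of the 10 genes. The windows of *Smad6*, *Grem1*, *Id4*, *Id3*, *Id2* and *Bmpr1a* hold letters known from SMAD-bound elements, and those of *Smad6*, *Grem1* and *Id4* are shown as examples. Each runs 5′ to 3′ on the strand of the gene, from 250 bases before the annotated start to 20 bases after it, with the matches in capitals.
Smad6, chr9:64022040-64022309, minus strand: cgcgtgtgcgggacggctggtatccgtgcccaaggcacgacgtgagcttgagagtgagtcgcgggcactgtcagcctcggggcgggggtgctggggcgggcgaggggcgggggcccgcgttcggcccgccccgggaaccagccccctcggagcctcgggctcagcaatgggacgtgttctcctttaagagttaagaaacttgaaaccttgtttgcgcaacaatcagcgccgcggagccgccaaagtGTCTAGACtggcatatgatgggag
Grem1, chr2:113758629-113758898, minus strand: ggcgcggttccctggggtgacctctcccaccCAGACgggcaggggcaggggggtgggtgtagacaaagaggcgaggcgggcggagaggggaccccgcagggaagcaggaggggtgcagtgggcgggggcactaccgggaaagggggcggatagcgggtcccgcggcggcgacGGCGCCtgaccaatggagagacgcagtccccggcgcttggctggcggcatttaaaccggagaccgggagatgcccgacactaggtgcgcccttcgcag
Id4, chr13:48260866-48261135, plus strand: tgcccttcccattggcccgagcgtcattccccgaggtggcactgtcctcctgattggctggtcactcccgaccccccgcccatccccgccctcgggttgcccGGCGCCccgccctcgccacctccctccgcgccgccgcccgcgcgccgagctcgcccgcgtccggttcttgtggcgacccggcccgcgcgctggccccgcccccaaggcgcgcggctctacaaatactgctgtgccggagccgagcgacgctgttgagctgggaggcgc
The letters searched on both strands were GTCTAGAC (a palindrome made of the SMAD box and its reverse), GGCGCC (a GC-rich SMAD element) and CAGAC or its reverse complement GTCTG (the SMAD box with a flanking base), and no match of one overlapped another in these windows. GTCTAGAC was found in *Smad6*, beginning 4 bases before the start, and in 0.183% of 32851 promoters of the same length. GGCGCC was found in *Grem1*, *Id4*, *Bmpr1a* and *Id2* and in 10.4% of all promoters. CAGAC or GTCTG was found in *Grem1* and, at 2 positions, in *Id3*, and in 45.4% of all promoters. By GENCODE M21, annotated exons of any gene covered all 250 bases before the start in *Id3*, 161 in *Id2* and 141 in *Bmpr1a*. They covered 0 in *Smad6*, *Grem1*, *Id4* and *Bmp4*. The *Bmp4* window held none of these letters. GC content was between 61.9% and 78.1% in the 7 windows, against a median of 52.6% over all promoters. These matches describe sequence only, and binding was not measured.

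Reads on genes, recovered from the deposited log2-cpm values, were between 7735742 and 16445192 per library, so that 3 reads correspond to 0.174 to 0.380 CPM (read counts scaled by the size of the library). The non-coding gene *Gm26917* held 15.5% to 16.6% of the reads at day 3 and 20.3% to 29.1% at day 6. *Pou5f1*, the gene of OCT4, did not have reduced values in libraries labelled siOct4: its difference from siNcor1 was −0.08 on the log2 scale at day 3 (limma, adjusted p = 0.941) and 1.78 at day 6 (adjusted p = 1.09e-04). *Ncor1* was higher in the libraries labelled siOct4 at day 3, by 0.74 (adjusted p = 0.0139), and its difference at day 6 was −0.04 (adjusted p = 0.815). These *Pou5f1* values do not show a reduction at days 3 and 6, and earlier days and the share of reads from the Oct4 transgene were not analysed here. The paper reports that *Oct4* mRNA was efficiently silenced earlier and soon recovered, which it attributes to strong overexpression from the transgene cassette. Compared with each other, without the non-targeting control, neither siRNA pool had a lower level of its own target at day 6. The name siOct4-labelled, used throughout, follows the sample labels and does not question which siRNA pool was given. All 8 fibroblast marker genes were above 3 reads in every group. The pluripotency markers *Zfp42*, *Esrrb*, *Dppa5a* and *Tdgf1* were at or under 3 reads in all libraries at day 3. The remaining marker of that list, *Nanog*, was above 3 reads in at least 1 library of each group at day 3. Below, levels are given in CPM, and differences are log2 fold changes from limma with their standard error (SE), with p-values adjusted over all 13866 genes.

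**Figure D1:**
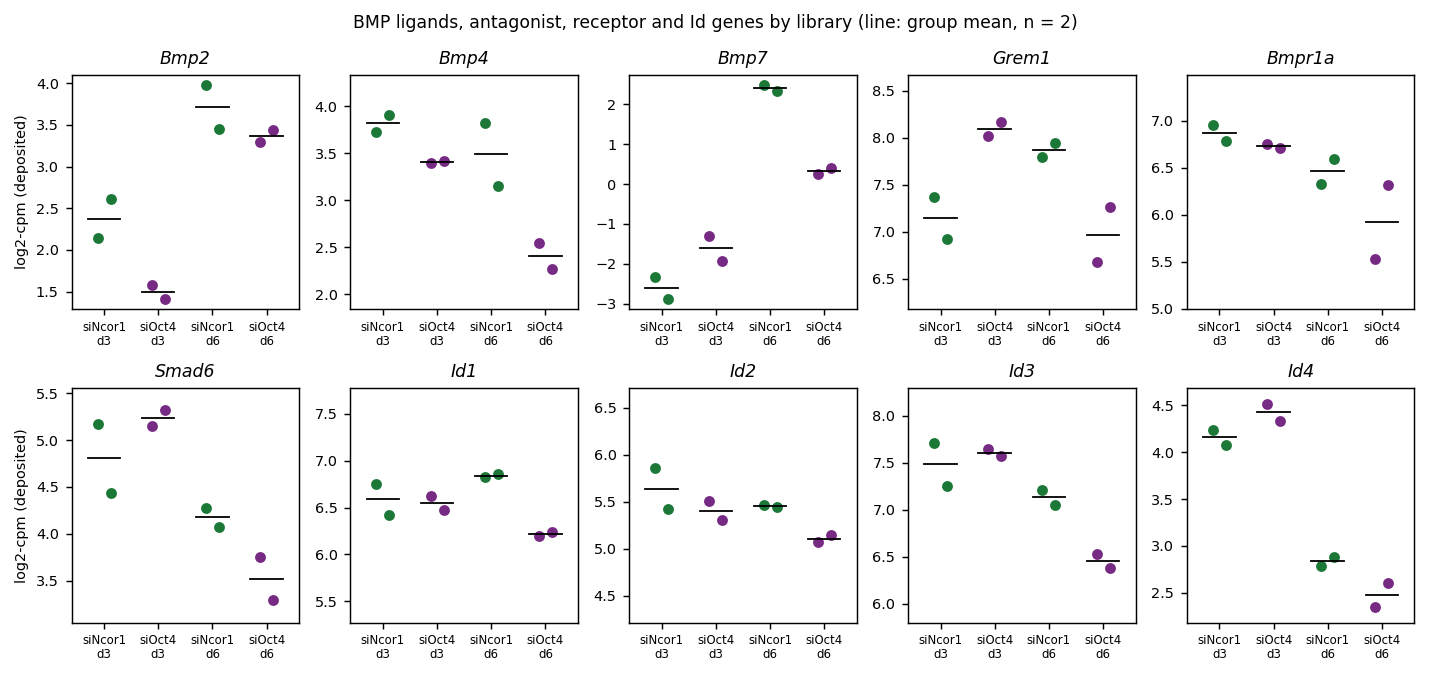
Deposited log2-cpm (vertical axis, with its own scale in each panel) of the 10 genes in the 8 libraries, with siNcor1 in green, siOct4-labelled in purple, days 3 and 6 as d3 and d6, and a line at the mean of each group of 2. At day 6 the siOct4-labelled points lie below the siNcor1 points in all 10 panels, and at day 3 the *Grem1* points lie above them.

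Levels were compared between the genes per kilobase of exon. *Id3* and *Id1* were the most abundant in all groups and *Bmp7* the least. In siNcor1 at day 3, *Id3* was at 101 ± 22.8 CPM per kb (SD, n = 2) and *Id1* at 83.3 ± 13.2, and the values of these neighbours overlapped between libraries. *Grem1* came next in every group, with 34.5 ± 7.41 CPM per kb in siNcor1 and 66.0 ± 4.94 in the siOct4-labelled libraries at day 3, and with 56.4 ± 4.34 and 30.8 ± 8.73 at day 6. *Id2*, *Bmpr1a* and *Smad6* followed in that order in all 4 groups. *Id2* and *Bmpr1a* overlapped between libraries at day 3 with both siRNA pools, and *Smad6* overlapped *Bmp4* in siNcor1 at day 6. *Id1* was above *Id3* at day 6, without overlap of the libraries, in siNcor1 (98.5 ± 1.61 against 78.3 ± 5.82 CPM per kb) and in the siOct4-labelled libraries (64.0 ± 1.42 against 49.0 ± 3.51).

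The ligands changed in different directions over time. *Bmp2* rose from day 3 to day 6 with both siRNA pools, *Bmp4* fell in the siOct4-labelled libraries, and *Bmp7* was barely detected before day 6. *Bmp2* (ENSMUSG00000027358, chromosome 2 from 133552159 to 133562885 of mm10) was at 4.27 and 5.97 CPM in siNcor1 at day 3 and at 15.6 and 10.8 CPM at day 6. In the siOct4-labelled libraries it was at 2.85 and 2.53 CPM at day 3 and at 9.72 and 10.7 CPM at day 6. Each day 6 library was thus above each day 3 library. The rise of *Bmp2* was 1.34 (SE 0.24, adjusted p = 0.00162) in siNcor1 and 1.87 (SE 0.24, adjusted p = 6.46e-05) in the siOct4-labelled libraries. Between the siRNA pools, the difference of *Bmp2* was −0.88 (SE 0.24, adjusted p = 0.131) at day 3 and −0.34 (SE 0.24, adjusted p = 0.304) at day 6, and neither passed the threshold.

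*Bmp4* (ENSMUSG00000021835, chromosome 14 from 46383520 to 46390669), a ligand close in sequence to BMP2, was at 13.1 and 14.9 CPM in siNcor1 and at 10.4 and 10.5 CPM in the siOct4-labelled libraries at day 3. The values at day 6 were 14.0 and 8.74 CPM in siNcor1 and 5.71 and 4.67 CPM in the siOct4-labelled libraries. The siOct4-labelled libraries at day 6 were the lowest of all, and the siNcor1 replicates differed most at that day. *Bmp4* was lower in the siOct4-labelled libraries at day 6 by a log2 fold change of −1.08 (SE 0.23, adjusted p = 0.00492), and at day 3 the difference was −0.41 (SE 0.23, adjusted p = 0.599). Without siNcor1 replicate 1 of day 6, the one with the higher value, the day 6 difference was −0.74 (adjusted p = 0.0532). From day 3 to day 6 it fell in the siOct4-labelled libraries, with −0.996 (SE 0.23, adjusted p = 0.00308), while in siNcor1 the change was −0.33 (SE 0.23, adjusted p = 0.289). Its exons overlap those of *Gm15217* on the opposite strand, and the counting was not stated to use strand.

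*Bmp7* (ENSMUSG00000008999, chromosome 2 from 172868012 to 172940321), a ligand with a known role in epithelia, had 1 and 0 reads in the siNcor1 libraries and 4 and 1 reads in the siOct4-labelled libraries at day 3. At day 6 it had 66 and 58 reads (5.45 and 4.88 CPM) in siNcor1, and 10 and 14 reads (1.06 and 1.19 CPM) in the siOct4-labelled libraries. It was thus nearly undetected at day 3 and passed the filter through the siNcor1 libraries of day 6. The ratio of its summed reads per effective library size between day 6 and day 3 was 173 in siNcor1, with a 95% counting interval from 30.4 to 6870.4, and 5.12 (1.92 to 17.2) in the siOct4-labelled libraries. The level in siNcor1 was 4.57 times that in the siOct4-labelled libraries at day 6 (2.94 to 7.41), with no overlap of the libraries. At day 3 the interval of the ratio of siOct4-labelled to siNcor1 libraries, 0.825 to 349, included 1. These intervals cover counting error only. Since *Bmp7* was tested only because of its high level in siNcor1 at day 6 (5.16 CPM, against a mean of 0.451 CPM over the other groups), limma's calls on it are a description and not support, and the counts below are also given without it. The limma difference at day 6 was −2.07 (SE 0.45), and the call ended without either siNcor1 library of that day.

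Summed per kilobase, the 3 ligands changed in composition more than in total. *Bmp4* made up 79.8% to 86.3% of the ligand sum in the 4 libraries of day 3 and 38.6% to 52.1% at day 6. *Bmp2* made up 13.1% to 20.2% at day 3 and 36.6% to 55.9% at day 6, and the ranges of the days did not overlap for either gene. *Bmp7* reached 11.3% and 14.9% in siNcor1 at day 6, against 4.75% and 5.50% in the siOct4-labelled libraries. The ligand sum itself was 5.42 and 5.48 CPM per kb in the siOct4-labelled libraries at day 3 and 5.54 and 5.38 at day 6. In siNcor1 it was 7.02 and 8.31 CPM per kb at day 3 and 11.996 and 8.13 at day 6. With 2 libraries a group, these sums and shares were not tested.

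**Figure D2:**
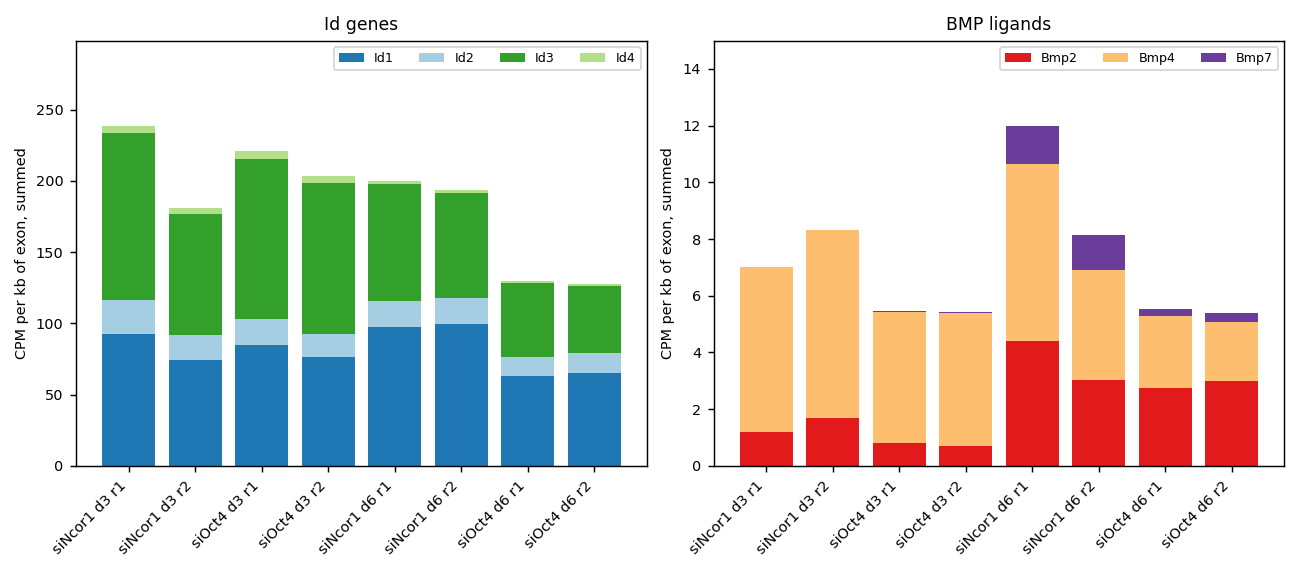
CPM per kilobase of exon (vertical axis) summed over the *Id* genes (left) and over the 3 ligands (right), with a stacked bar for each of the 8 libraries (r1 and r2 are the replicates). The *Id* bars of siOct4-labelled libraries at day 6 reach 129 and 128, below the other 6 libraries, and among the ligands the share of *Bmp2* is larger at day 6 than at day 3.

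*Grem1* (ENSMUSG00000074934, chromosome 2 from 113746164 to 113758646) differed between the siRNA pools at both days, in opposite directions. At day 3 it was at 165 and 121 CPM in siNcor1 and at 259 and 288 CPM in the siOct4-labelled libraries. By day 6 it was at 221 and 247 CPM in siNcor1 and at 102 and 153 CPM in the siOct4-labelled libraries. The libraries of the siRNA pools did not overlap at either day. The difference was 0.95 (SE 0.19, adjusted p = 0.0379) at day 3 and −0.90 (SE 0.19, adjusted p = 0.00511) at day 6, and the difference between these, −1.85 (SE 0.27, adjusted p = 0.00127), kept its call under all 11 alternatives of processing and without any single library. *Grem1* rose with time in siNcor1, by 0.73 (SE 0.19, adjusted p = 0.0119), and fell in the siOct4-labelled libraries, with −1.12 (SE 0.19, adjusted p = 4.36e-04).

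The day 3 call of *Grem1* was the least firm of these. Its adjusted p was between 0.0141 and 0.174 over 12 alternatives of processing, 4 of which ended the call, and each library of day 3 and each siNcor1 library of day 6 ended it when left out, with a difference between 0.73 and 1.17. The day 6 call ended only without siNcor1 replicate 2 of day 6 (−0.82, adjusted p = 0.0550), and the rise in siNcor1 ended without siNcor1 replicate 2 of day 3 (0.51, adjusted p = 0.147) or of day 6 (0.65, adjusted p = 0.0809), and without the trend of the variance (adjusted p = 0.0535). Per kilobase, *Grem1* was 11.4 and 12.8 times the ligand sum in the siOct4-labelled libraries at day 3, against 5.65 and 3.52 times in siNcor1. At day 6 these multiples were 4.45 and 6.87 in the siOct4-labelled libraries and 4.45 and 7.32 in siNcor1.

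*Bmpr1a* (ENSMUSG00000021796, chromosome 14 from 34410734 to 34503341), a type I receptor for BMP2 and BMP4, was at 124 and 110 CPM in siNcor1 and at 108 and 104 CPM in the siOct4-labelled libraries at day 3. The day 6 values were 80.3 and 96.7 CPM in siNcor1 and 46.2 and 79.4 CPM in the siOct4-labelled libraries. Replicate 1 of the siOct4-labelled libraries at day 6, which also had the highest share of *Gm26917*, was far below the others, and the part of that share in the result was not tested. *Bmpr1a* fell with time in the siOct4-labelled libraries, with −0.81 (SE 0.20, adjusted p = 0.00569). The change in siNcor1 was −0.41 (SE 0.20, adjusted p = 0.142). The difference between the siRNA pools at day 6, −0.54 (SE 0.20, adjusted p = 0.0634), did not pass the threshold, and it was −0.93 (adjusted p = 5.75e-04) without replicate 2 of that group and −0.15 (adjusted p = 0.446) without replicate 1. The antisense gene *Gm17110* overlaps its exons and held between 6 and 11 reads per library.

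*Smad6* (ENSMUSG00000036867, chromosome 9 from 63953076 to 64022059), whose promoter holds GTCTAGAC, was at 35.9 and 21.5 CPM in siNcor1 and at 35.3 and 39.7 CPM in the siOct4-labelled libraries at day 3. *Smad6* at day 6 was at 19.2 and 16.7 CPM in siNcor1 and at 13.3 and 9.68 CPM in the siOct4-labelled libraries. All libraries of day 6 were below all libraries of day 3. It fell with time in the siOct4-labelled libraries, with −1.71 (SE 0.23, adjusted p = 8.50e-05), and the change in siNcor1 was −0.63 (SE 0.23, adjusted p = 0.0512), which passed under 5 of 12 alternatives (adjusted p between 0.0179 and 0.114). At day 6 *Smad6* was lower in the siOct4-labelled libraries by a log2 fold change of −0.65 (SE 0.23, adjusted p = 0.0477), a call at the edge of the threshold that ended under 6 of 12 alternatives (adjusted p between 0.0212 and 0.111). It also ended without either siOct4-labelled library of day 3, without either siNcor1 library of day 6 and without siOct4-labelled replicate 2 of day 6, and the difference was between −0.88 and −0.43 over the 8 fits that each left out a library.

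Of the *Id* genes, *Id1* and *Id3* were lower in the siOct4-labelled libraries at day 6, and *Id3* and *Id4* fell over time there. *Id1* (ENSMUSG00000042745, chromosome 2 from 152736251 to 152737410) was at 108 and 85.8 CPM in siNcor1 and at 98.4 and 88.5 CPM in the siOct4-labelled libraries at day 3. At day 6 it was at 113 and 116 CPM in siNcor1 and at 73.1 and 75.5 CPM in the siOct4-labelled libraries. The siRNA pools overlapped at day 3 (−0.04, SE 0.13, adjusted p = 0.959) and were apart at day 6 (−0.62, SE 0.13, adjusted p = 0.00504). With siNcor1 replicate 2 of day 6 left out, the day 6 difference was −0.60 (adjusted p = 0.0529). Over time *Id1* changed by 0.25 (SE 0.13, adjusted p = 0.16) in siNcor1 and by −0.33 (SE 0.13, adjusted p = 0.0518) in the siOct4-labelled libraries, and neither passed the threshold.

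*Id3* (ENSMUSG00000007872, chromosome 4 from 136143497 to 136145755) was at 210 and 152 CPM in siNcor1 and at 201 and 190 CPM in the siOct4-labelled libraries at day 3. At day 6 it was at 148 and 133 CPM in siNcor1 and at 92.1 and 83.3 CPM in the siOct4-labelled libraries. The groups overlapped at day 3 and not at day 6. The difference between the siRNA pools was 0.12 (SE 0.15, adjusted p = 0.888) at day 3 and −0.68 (SE 0.15, adjusted p = 0.00648) at day 6, and −0.60 (adjusted p = 0.0532) at day 6 without siNcor1 replicate 1 of that day. *Id3* fell with time in the siOct4-labelled libraries, with −1.15 (SE 0.15, adjusted p = 7.03e-05), and the change in siNcor1 was −0.35 (SE 0.15, adjusted p = 0.0875).

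*Id4* (ENSMUSG00000021379, chromosome 13 from 48261228 to 48266026), a member of the family known in neural and mammary development, was at 18.7 and 16.8 CPM in siNcor1 and at 22.8 and 19.999 CPM in the siOct4-labelled libraries at day 3. At day 6 it was at 6.77 and 7.23 CPM in siNcor1 and at 4.97 and 5.94 CPM in the siOct4-labelled libraries. *Id4* fell with time with both siRNA pools, with −1.32 (SE 0.18, adjusted p = 2.62e-04) in siNcor1 and −1.95 (SE 0.18, adjusted p = 5.40e-06) in the siOct4-labelled libraries, and it was the only *Id* gene called over time in siNcor1. Between the siRNA pools its difference was 0.27 (SE 0.18, adjusted p = 0.704) at day 3 and −0.36 (SE 0.18, adjusted p = 0.143) at day 6. Its exons overlap *A330033J07Rik* and *Gm49291* on the opposite strand. *Id2* (ENSMUSG00000020644, chromosome 12 from 25093799 to 25097140) lay between 33.4 and 57.9 CPM over the 8 libraries and passed the threshold in no comparison. At day 6 its difference between the siRNA pools was −0.35 (95% interval −0.69 to −0.02, adjusted p = 0.102).

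Summed per kilobase, the 4 *Id* genes reached 239 and 181 CPM per kb in siNcor1 and 221 and 204 in the siOct4-labelled libraries at day 3. At day 6 the sum was 200 and 194 in siNcor1 and 129 and 128 in the siOct4-labelled libraries. The last 2 libraries were below all the others. *Id3* held 47.0% to 52.0% of the sum at day 3 and 36.5% to 41.3% at day 6, while *Id1* held 37.5% to 40.9% and then 48.7% to 51.5%, at similar shares with both siRNA pools. *Id4* held 2.04% to 2.67% at day 3 and 0.882% to 1.21% at day 6.

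At day 3, 1 of the 10 genes differed between the siRNA pools, *Grem1*, which was higher in the siOct4-labelled libraries, and 0 were lower by limma. Of all genes tested, 1.07% were called at that day, 0.375% as higher and 0.692% as lower. At an unadjusted p under 0.05, *Bmp2* was also lower and *Bmp7* also higher, and voom on the recovered reads called 0 lower. The libraries of the siRNA pools did not overlap for 6 of the 10, against 43.4% of all genes.

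In the comparison at day 6, *Bmp4*, *Bmp7*, *Grem1*, *Smad6*, *Id1* and *Id3* were lower in the siOct4-labelled libraries, which makes 6 of the 10, and 0 were higher by limma. Of all genes tested, 30.7% were called at day 6, 18.6% as lower and 12.1% as higher. At an unadjusted p under 0.05, 0 were higher as well, and voom on the recovered reads also gave 0. Leaving out *Bmp7*, whose reads at day 3 were so few, 5 of the other 9 were called. All 10 differences were negative under each scaling of the libraries, with a median of −0.64 against −0.03 over all genes tested. The libraries did not overlap for 10 of 10 genes, which was the case for 64.7% of all genes. The count was between 2 and 6 when single libraries were left out, and it was 2 without siNcor1 replicate 1 and 2 without siNcor1 replicate 2 of day 6.

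**Figure D3:**
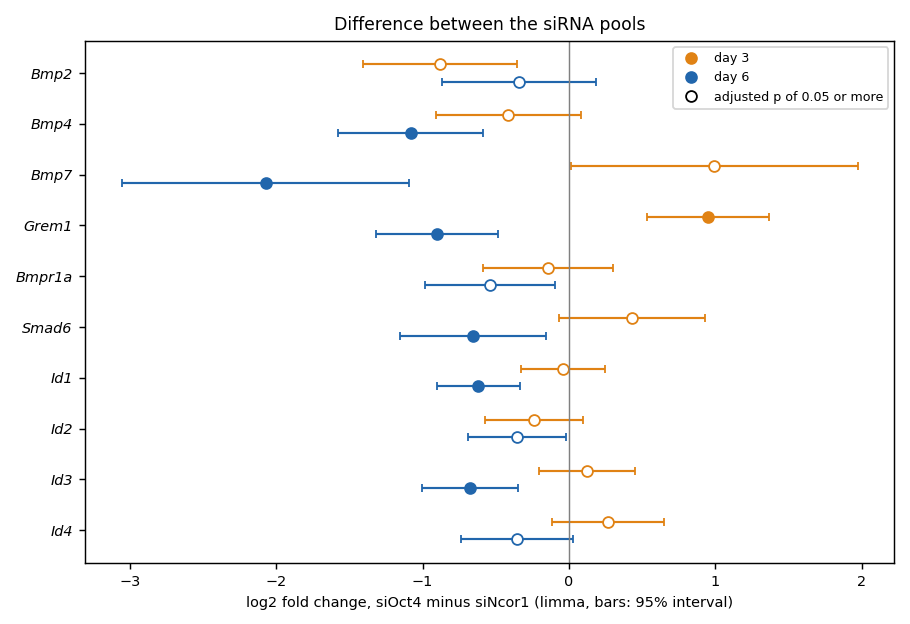
Log2 fold change of siOct4-labelled libraries against siNcor1 (horizontal axis) for the 10 genes at day 3 (orange) and day 6 (blue), with 95% intervals from limma, filled where the adjusted p was under 0.05. *Grem1* is at 0.95 at day 3 and −0.90 at day 6, and all day 6 points are below 0.

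The fibroblast markers moved with this day 6 result. All 8 of them were lower in the siOct4-labelled libraries at day 6, and their summed level was 3363 to 3435 CPM there against 6028 to 6217 CPM in siNcor1. At day 3, limma called 0 of the 8 (5 were higher at an unadjusted p under 0.05, and voom called 1 higher), with sums of 10960 to 12454 CPM in the siOct4-labelled libraries and 8244 to 8412 CPM in siNcor1. Simple epithelial markers were lower for 4 of 5 genes at each day, with sums of 270 to 298 CPM in the siOct4-labelled libraries and 639 to 673 CPM in siNcor1 at day 6. Among these, *Cdh1*, the gene of E-cadherin, was lower by −2.02 (adjusted p = 6.11e-05) at day 3 and by −0.68 (adjusted p = 0.0035) at day 6 on the log2 scale. Of the pluripotency markers, 3 of 4 tested were lower at day 6, with sums of 22.4 to 23.3 CPM against 61.5 to 71.0 CPM. These 3, *Esrrb*, *Dppa5a* and *Tdgf1*, were at or under 3 reads in all libraries at day 3. They thus passed the filter through day 6, when siNcor1 was the higher group, so their calls are a description. At day 3, 1 of the 4 was lower, *Nanog* (−2.03, limma, adjusted p = 0.0491), with list sums of at most 1.30 CPM in any library. Neural and glial markers were higher for 2 of 4 genes at day 6, with sums of 111 to 126 CPM against 44.5 to 47.6 CPM. The part of these markers in the values of the BMP genes was not tested. Endothelial markers summed to 16.4 to 44.4 CPM, of which *Emcn* was at or under 3 reads in all 4 groups and *Cdh5* in all but siNcor1 at day 6. The keratinocyte marker *Krt15* was at or under 3 reads in all 4 groups. *Krt14*, the only keratinocyte marker tested, was so in both groups of day 3. It was higher at day 6 in siNcor1 (3.92) and in the siOct4-labelled libraries (2.19). Between the siRNA pools it was lower in the siOct4-labelled libraries at day 6 (−1.32, limma, adjusted p = 0.0443), also a description. Blood and macrophage markers summed to at most 12.1 CPM in any library, and of the 4 skeletal muscle markers the table held only *Des*, at 13.9 to 85.2 CPM.

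From day 3 to day 6, 3 of the 10 genes were called higher (*Bmp2*, *Bmp7* and *Grem1*) and 1 lower (*Id4*) in siNcor1, which is 2 and 1 of 9 without *Bmp7*. Of all genes tested, 34.8% were called there, with 13.8% that rose and 20.9% that fell. In the siOct4-labelled libraries, 2 were called higher (*Bmp2* and *Bmp7*) and 6 lower (*Bmp4*, *Grem1*, *Bmpr1a*, *Smad6*, *Id3* and *Id4*), which is 1 and 6 of 9 without *Bmp7*, where 52.7% of all genes were called, with 22.2% that rose and 30.5% that fell. The libraries of the days did not overlap for 8 of 10 genes in siNcor1 and for 10 of 10 in the siOct4-labelled libraries, against 73.1% and 74.8% of all genes. The median change of the 10 genes was −0.26 in siNcor1 and −0.90 in the siOct4-labelled libraries, against −0.07 and −0.08 over all genes. The calls in the siOct4-labelled libraries other than that of *Bmp7* were kept under every alternative that tested the gene and without any single library. Fibroblast markers fell in 5 of 8 cases over the same days in the siOct4-labelled libraries and in 2 of 8 in siNcor1, where 4 rose, and all 5 epithelial markers rose with both siRNA pools.

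**Figure D4:**
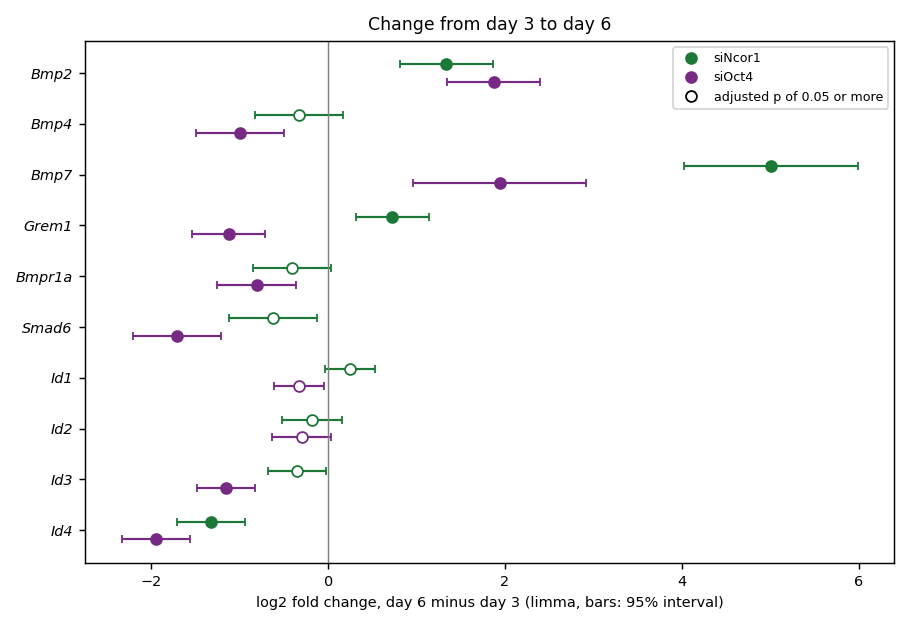
Log2 fold change from day 3 to day 6 (horizontal axis) for the 10 genes in siNcor1 (green) and the siOct4-labelled libraries (purple), with 95% intervals from limma, filled where the adjusted p was under 0.05. *Bmp2* and *Bmp7* lie above 0 in both, *Id4* lies below 0 in both, and *Grem1* lies at 0.73 in siNcor1 and at −1.12 in the siOct4-labelled libraries.

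Whether the difference between the siRNA pools itself changed from day 3 to day 6 was tested as an interaction. It was more negative at day 6 for 5 of the 10 genes and more positive for 0 by limma, also at an unadjusted p under 0.05 and by voom. Of all genes, 20.7% were called for the interaction, 12.9% in the negative and 7.77% in the positive direction. The 5 genes were *Bmp7* (−3.07), *Grem1* (−1.85), *Smad6* (−1.08, SE 0.32, adjusted p = 0.035), *Id3* (−0.80, SE 0.21, adjusted p = 0.0222) and *Id1* (−0.58, SE 0.18, adjusted p = 0.045). The fitted value of *Bmp7* rests on a total of 6 reads at day 3 and ran from −4.395 to −1.75 over the alternatives, and leaving this gene out gives 4 of 9. The calls of *Smad6*, *Id1* and *Id3* ended together when 5 of the 8 libraries were left out singly, all but siNcor1 replicate 1 of day 3 and the siOct4-labelled libraries of day 6, and the count was then 2. Over all 8 such fits the values ran from −1.45 to −0.72 for *Smad6*, from −0.74 to −0.42 for *Id1* and from −1.03 to −0.57 for *Id3*, and the call of *Smad6* also ended without siOct4-labelled replicate 2 of day 6 (−0.86, adjusted p = 0.0588). *Bmp2*, at 0.54 (SE 0.34, adjusted p = 0.281), was the only gene with a positive value.

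The other genes of the pathway were taken from a list of 57 genes, of which 51 were in the table and 44 were tested. At day 6, 20 of the 44 were lower in the siOct4-labelled libraries and 2 were higher, beside 18.6% and 12.1% of all genes. Their median difference was −0.53, against −0.03 over all genes. Receptors were among the lower genes: *Bmpr1b*, a type I receptor, had −1.20 (SE 0.35, adjusted p = 0.0242), 2 of 3 type I receptors were lower, and of 3 type II receptors *Bmpr2* was lower and *Acvr2b* higher, by 0.97 (SE 0.20, adjusted p = 0.00453). *Bmpr1b* had few reads at day 6, from 6 to 19 in the siOct4-labelled libraries and from 27 to 34 in siNcor1, so its values that involve day 6 are limited by depth. Of the coreceptors, 3 of 4 were lower, with *Tgfbr3*, which encodes betaglycan, at −1.31 (SE 0.11, adjusted p = 1.09e-04). The ligand *Bmp8b* was higher, by 0.85 (adjusted p = 0.0153), and the other 4 ligands tested had negative values that missed the threshold.

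Inside the cell, 1 of the 4 signalling SMADs was lower, *Smad5*, by a log2 fold change of −0.46 (adjusted p = 0.0379). Of the 7 inhibitors in the cell or membrane, 2 were lower, and *Tob1*, an antiproliferative protein that can bind SMADs, had the largest difference, −0.63 (adjusted p = 0.0121). Secreted antagonists were lower for 4 of 8 genes, with *Twsg1*, whose product binds BMPs together with chordin, at −0.88 (SE 0.13, adjusted p = 9.75e-04). The 3 secreted modulators were all lower, with *Tll1*, a protease of the family that cleaves chordin, at −1.15 (SE 0.24, adjusted p = 0.00515). Of 4 further targets, 3 were lower, with *Msx2*, a homeobox gene induced by BMP, at −1.14 (SE 0.21, adjusted p = 0.00269). Among the E protein genes, whose products the ID proteins bind, 1 of 3 was lower, *Tcf4*, at −0.91 (SE 0.11, adjusted p = 4.40e-04). The other lower genes, named after their values were seen, were *Acvr1*, *Rgma*, *Rgmb*, *Smad7*, *Fst*, *Nbl1*, *Bmper*, *Bmp1*, *Crim1*, *Msx1* and *Atoh8*, as was *Bmpr2* above. The count of lower genes was between 13 and 24 over the alternatives of processing, and 12 and 8 genes in either direction were called without siNcor1 replicate 1 and replicate 2 of day 6.

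At day 3, limma called 0 of the 44 genes. At an unadjusted p under 0.05, 11 were higher and 3 lower in the siOct4-labelled libraries, and voom on the recovered reads called 1 higher, *Bmper*, which encodes a secreted BMP-binding protein. Without either siOct4-labelled library of day 6, limma called 4 higher, *Bmper*, *Nbl1*, *Acvrl1* and *Bmp1*. Of the 44 genes, 24 had a positive difference at day 3 and a negative difference at day 6, 13 were negative at both days, 4 were positive at both and 3 went from negative to positive. The change of the difference passed the threshold in 19 genes in the negative direction, among them *Bmpr1b* (−2.05), *Msx2* (−1.70), *Tll1* (−1.67), *Bmper* (−1.58), *Tgfbr3* (−1.23), *Smad7* (−1.12), *Smad1* (−0.74) and *Tcf4* (−0.71). The ligand with the largest value was *Gdf6* (−2.44), which was tested only because of its level in the siOct4-labelled libraries at day 3 (3.14 CPM, against a mean of 0.907 CPM over the other groups). In the positive direction 1 gene passed, *Acvr2b* (1.39), and without *Gdf6*, *Bmp3* and *Gdf5* 18 of 41 genes passed in the negative direction. Of all genes, 12.9% passed in the negative and 7.77% in the positive direction. Since the differences of day 3 and day 6 come from separate libraries, they share no control sample.

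**Figure D5:**
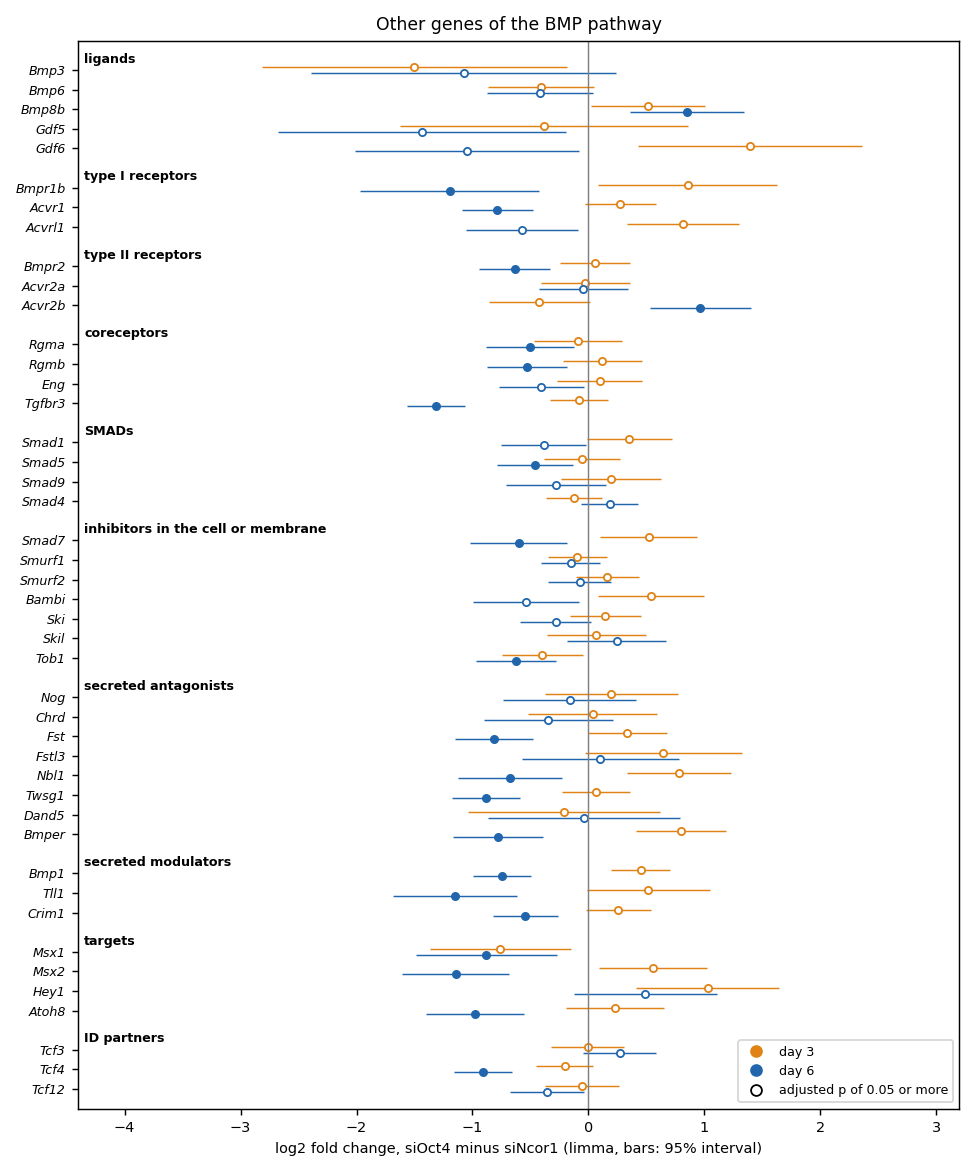
Log2 fold change of siOct4-labelled libraries against siNcor1 (horizontal axis) for the 44 other pathway genes tested, by role, at day 3 (orange) and day 6 (blue), with 95% intervals from limma, filled where the adjusted p was under 0.05. At day 3 no point is filled, and at day 6 20 filled points lie below 0 and 2, *Bmp8b* and *Acvr2b*, above it.

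Over time, 8 of the 44 genes rose and 14 fell in siNcor1, and 5 rose and 31 fell in the siOct4-labelled libraries. Of all genes, 13.8% rose and 20.9% fell in siNcor1, and 22.2% rose and 30.5% fell in the siOct4-labelled libraries. The median change of the 44 genes was −0.14 in siNcor1 and −0.87 in the siOct4-labelled libraries, against −0.07 and −0.08 over all genes. In siNcor1 the largest change of a role was a fall for *Smad9* (−2.04), the antagonist *Nog* (−1.53), *Tll1* (−1.35), *Bmpr1b* (−0.98), the target *Hey1* (−0.87), *Skil* (−0.84) and *Acvr2a* (−0.84), and a higher value at day 6 for *Bmp3* (1.95), *Rgma* (1.15) and *Tcf4* (0.52). In the siOct4-labelled libraries it was a fall for *Bmpr1b* (−3.04), *Tll1* (−3.02), *Smad9* (−2.51), *Bmper* (−1.93), the target *Atoh8* (−1.83), *Smad7* (−1.49) and *Tgfbr3* (−0.91), and a higher value at day 6 for *Bmp3* (2.38), *Acvr2b* (1.49) and *Tcf3* (0.55). *Bmp3* had few reads at day 3, down to 1 in a siOct4-labelled library, and was tested only because of siNcor1 at day 6 (3.73 CPM, against 0.809 over the other groups), so its calls are a description. Without *Bmp3*, *Gdf5* and *Gdf6*, which each passed the filter through a single group, 7 of 41 genes rose and 14 fell in siNcor1, and 4 rose and 29 fell in the siOct4-labelled libraries.

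Among the 10 genes, the profiles over the 8 libraries were most alike for *Smad6* and *Id3* (Pearson's r = 0.966) and most opposed for *Bmp2* and *Id4* (r = −0.905). Of all other genes tested, the profile most like *Id3* was that of *Atoh8* (r = 0.993), which is also on the list of BMP targets. That of *Fah* (r = 0.993), which is not on the list, was nearly as close. The closest profile to *Grem1* was that of *Mamdc2* (r = 0.991), to *Bmp7* that of *Acp5* (r = 0.994), to *Bmp2* that of *Hopx* (r = 0.986) and to *Bmp4* that of *Top3b* (r = 0.971). For *Bmpr1a*, *Smad6*, *Id1*, *Id2* and *Id4* they were *Rabgap1* (r = 0.993), *Pla2g16* (r = 0.990), *Prr33* (r = 0.978), *Usp3* (r = 0.944) and *Sh3glb1* (r = 0.996). These correlations describe 8 libraries that fall into 4 groups and share their depth and scaling, and no test was made of them.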

How the data were processed

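RNA-seq was measured in reprogramming MEFs of 4 groups with 2 biological replicates each. The authors aligned reads to mm10 (GRCm38) with STAR 2.5.2b and deposited log2-cpm values computed with edgeR 3.20.9, per the submitters' processing notes. The read counter is not given in the sources used here. The deposited values are not counts, but after removal of a constant of 0.136 CPM on the linear scale, 100% of them were whole multiples of the value of 1 read (within 0.1 read). The depth was taken from these reads, which were between 7735742 and 16445192 per library, and the precision of each mean rests on 2 libraries. Coordinates and exon lengths came from GENCODE M21, to which 18969 of 18990 genes matched, and promoters from RefSeq.

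The 13866 genes whose mean over all libraries reached 1 CPM were fitted with limma 3.58.1 (R 4.3.3), using the deposited log2 values, all 4 groups together, and a variance that depends on the mean (trend). Replicate scatter against counting error (chi-square per degree of freedom) was 21.3 in siOct4-labelled day 6 libraries and 9.48 to 10.6 in the other groups. The shared spread does not follow this. With only the groups compared, calls over all genes went from 4251 to 3060 at day 6. Over time they went from 7312 to 6222 in the siOct4-labelled libraries and from 4819 to 6071 in siNcor1. Tests were two-sided with Benjamini-Hochberg adjustment at 0.05. The fit was tested on simulated data with the same spread in all groups and few genes changed, in a single group. That test does not cover unequal spread or changes in many genes. The design was the one planned for log2-cpm values. The ratios of *Bmp7* reads are given with exact 95% intervals (scipy 1.17.1), and figures were drawn with matplotlib 3.10.9. Alternatives were a fit without the trend, 4 other scalings, other filters and pseudocounts, the replicate number as a block, a fit restricted to the groups in question, voom on the recovered reads, and leaving out each library.

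The members, the pathway list and the marker lists were chosen with earlier results of these data known. An item of the planned pathway list is not reported here. All members are named. In each role of the pathway list and each comparison, the gene with the largest change among those past the threshold without overlap of the libraries is named, and for the interaction among those past the threshold. The gene with the highest Pearson correlation over the 8 libraries is named for each member.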

Additional observations from a re-analysis of the deposited data

Results flagged for a closer look

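For 5 genes the difference between the siOct4-labelled and siNcor1 libraries was itself different at day 6 and day 3 by limma's interaction term (adjusted p under 0.05). The change was −3.07 for *Bmp7* and −1.85 for *Grem1* on the log2 scale, and the call of *Grem1* was kept under every alternative. *Bmp7* was tested only through its high level in siNcor1 at day 6 and had 6 reads at day 3, and its value ran from −4.395 to −1.75 over the alternatives. The change was −1.08 for *Smad6*, −0.80 for *Id3* and −0.58 for *Id1*, and the first 2 of these calls ended without the trend of the variance (adjusted p = 0.0949 and 0.0751), as did that of *Id1* (0.108). The *Id1* call also ended with quantile normalization, without *Gm26917* in the library totals and without a filter on low values. No group had enough libraries for a search for single outlying libraries.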

How the results depend on the processing

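Over the 50 differences of the 10 genes (5 comparisons), 550 of 580 values under other processing kept their direction and side of the threshold, 17 ended a call, 13 gained one and 0 reversed. The count of members called at day 3 was 0 without the trend of the variance, without normalization factors, without a filter and at a mean of at least 10 CPM, and the count of pathway genes called at day 3, otherwise 0, was 1 with libraries centred on their medians, with only the groups compared and with voom. At a mean of at least 10 CPM, 2 members were called over time in siNcor1 (*Bmp2* and *Bmp7* are then not tested), and without the trend 2 members were called for the interaction. Of all genes called at day 6, 39.5% were higher, and 27.5% without normalization factors. Without *Gm26917* in the library totals, the median change of all genes over time in the siOct4-labelled libraries moved from −0.08 to 0.06. Whether the replicate numbers pair the samples was not settled. The correlation of same-numbered deviations between groups was weak and mostly positive, from −0.04 to 0.281 over 6 pairs of groups. A block for these numbers raised the calls over all genes in every comparison, for example from 2867 to 3395 for the interaction. With the replicate number as a block, 1 pathway gene was called at day 3, and 7 members were called at day 6, with *Bmpr1a* (adjusted p = 0.0399) added, and over time *Smad6* (0.0226) and *Id3* (0.0385) were added in siNcor1, for 6 members, and *Id1* (0.0413) in the siOct4-labelled libraries, for 9. The block ended no call of a member. Leaving out single libraries, with the lone library of a group assumed to vary like those of the other groups, gave between 0 and 1 members and 0 and 4 pathway genes at day 3, 2 to 6 and 8 to 22 at day 6, 3 to 6 and 10 to 26 over time in siNcor1, 8 to 9 and 30 to 35 in the siOct4-labelled libraries, and 2 to 6 and 11 to 23 for the interaction. The direction of 5 uncalled differences turned in such fits: those of *Id1* (−0.20 to 0.12) and *Id3* (−0.11 to 0.36) between the siRNA pools at day 3, of *Bmp4* (−0.67 to 0.0095) and *Id2* (−0.40 to 0.036) over time in siNcor1, and of *Id2* (−0.33 to 0.10) for the interaction. Other causes of these shifts were not tested. Genes with few reads, such as *Bmp7* at day 3, are limited by depth.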
